A study of Homo sapiens with 13 samples.

Results

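The genes described here are 36 members of the NRF2 antioxidant and detoxification program: the gene of the transcription factor NRF2 itself (NFE2L2), its partners KEAP1 and MAFG, and the target genes it is known to govern. They are defined by gene symbol, on a list drawn up with earlier results of these data known, and each had 1 row among the 43836 genes of the count table. The low-count filter left 17092 genes for testing and 35 of the 36 members among them. AKR1C3, a steroid and carbonyl reductase, fell below it, with at most 4 reads in any library.

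The cells were hFOB 1.19, an immortalized line of human fetal osteoblasts, so all libraries come from 1 line. Polyadenylated RNA was sequenced in 5 groups. The positive controls (PC, 2 libraries) were grown with 10% fetal bovine serum (FBS) and the negative controls (NC, 2 libraries) without it, both with the DMSO vehicle. Resveratrol (RES, 3 libraries), peonidin-3-O-glucoside (POG, 3 libraries) and DEG (2 libraries) were labelled at 1 mcg/ml, and the study's methods describe RES and POG as added to serum-starved cells. The labels do not spell out DEG, and delphinidin-3-glucoside is named in the treatment protocol beside the other compounds. An equal mass dose is not an equal molar dose, and the labels state no duration of treatment. Nothing in the labels says that libraries of a group came from separate cultures, so the p-values measure the spread between libraries, which may be technical.

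NRF2 is a transcription factor that KEAP1 marks for degradation while a cell is unstressed. Oxidants and electrophiles modify KEAP1, NRF2 then builds up, pairs with a small MAF protein such as MAFG, and binds antioxidant response elements near its target genes. Those targets make glutathione, keep thioredoxin and NADPH reduced, detoxify quinones and aldehydes, break down heme and pump conjugates out of the cell. Much of the control of NRF2 is on the protein, which RNA counts do not show. In bone, NRF2 is known for protecting osteoblasts from oxidative stress.

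Of the members whose values are given library by library, 4 carried the core of the antioxidant response element, TGACNNNGC on either strand, in the RefSeq promoter window (GRCh38.p14, 250 bases before to 50 after the gene start). The stretches below are those of these 4 members and let the core be compared between genes. GCLM, PIR and TXNRD1 were lower with RES and KEAP1 was not called. Of the other members with a core, EPHX1 and ME1 were lower with RES, and ABCB6, CBR1 and PGD were not called. They are written 5′ to 3′ on the strand of the gene, with each core in capitals, and a core that lies on the opposite strand reads here as its reverse complement.
GCLM, chr1:93909431-93909494, minus strand, ending just before the start: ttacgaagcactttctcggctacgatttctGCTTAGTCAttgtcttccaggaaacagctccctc
KEAP1, chr19:10502787-10502855, minus strand, upstream of the start, 2 cores: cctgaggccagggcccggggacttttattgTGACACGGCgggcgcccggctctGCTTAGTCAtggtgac
PIR, chrX:15493289-15493317, minus strand, just after the start: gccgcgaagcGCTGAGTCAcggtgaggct
TXNRD1, chr12:104215650-104215718, plus strand, upstream of the first start: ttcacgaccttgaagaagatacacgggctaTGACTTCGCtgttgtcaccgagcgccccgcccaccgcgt
TXNRD1, chr12:104286900-104286968, plus strand, upstream of a later start: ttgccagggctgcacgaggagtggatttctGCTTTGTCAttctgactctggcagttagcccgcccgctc
TXNRD1, chr12:104215761-104215789, plus strand, around the first start: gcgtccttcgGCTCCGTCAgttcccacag
GCLM and KEAP1 held the same 9 letters, GCTTAGTCA.

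RefSeq windows matched 27 of the 36 members, and 9 of those (33.3%) held a core: ABCB6, CBR1, EPHX1, GCLM, KEAP1, ME1, PGD, PIR and TXNRD1. Over all genes with a window, 16.1% held one. Among tested members, 5 of 9 with a core in the window and 8 of 17 without were lower with RES. Elements outside the window are not seen and members without a window are not counted. These counts therefore cannot tell whether members with an element changed more often. ABCC1, ABCC3, CBR3, GSR, HMOX1, NMRAL2P, PRDX1, SLC7A11 and TRIM16L had no window.

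The libraries held 38464619 to 51416358 counted reads. Spread between libraries of a group was taken as the mean squared deviation relative to counting noise. It was 2.09 to 2.75 in 8 pairs and 12.0 in the pair of positive controls. Comparisons with PC thus rest on the least even group. The spread that the tests use (dispersion) was estimated over all 12 libraries, so the uneven PC pair entered the other comparisons too. The osteoblast label was checked on markers fixed for this purpose: COL1A1 stood at 2463 to 2869 CPM (read counts scaled to a common library size), COL1A2 at 1112 to 1420 CPM, SPARC at 1019 to 1177 CPM and RUNX2 at 44.3 to 51.6 CPM. The other osteoblast markers were low: ALPL at 3.22 to 6.66 CPM, SPP1 at 0.955 to 2.34 CPM, BGLAP at 0.425 to 2.00 CPM, and SP7 and IBSP at or near 0. Of the 16 markers of other cell types, PTPRC, CDH5, CDH1, ADIPOQ and FABP4 were below the filter and the other 11 were detected. These were CTSK (8.80 to 12.4 CPM), CSF1R (1.498 to 3.08 CPM), ACP5 and CD68 of osteoclasts and blood cells, PECAM1 (1.08 to 2.47 CPM) and KDR of endothelium, EPCAM of epithelium, SOX9 (1.20 to 6.19 CPM), COL2A1 and ACAN of cartilage, and PLIN1 of fat cells. Those without a value here read at most 1.55 CPM in any library. The mitochondrial share was 3.03% to 3.91%, highest in PC.

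Levels between genes are given as CPM per kilobase of exon. In the negative controls the peroxide-reducing enzyme PRDX1 stood highest among the members at 138.9 CPM per kb, followed by thioredoxin (TXN) at 86.0 and the pentose phosphate enzyme TKT at 63.3. NQO1, which reduces quinones and is a classic NRF2 target, stood at 32.4 and the thioredoxin reductase TXNRD1 at 31.7. The heme-degrading enzyme HMOX1 stood at 10.6, the glutamate-cysteine ligase subunits GCLM at 8.25 and GCLC at 2.04, and the cystine transporter SLC7A11 at 3.95. In all, 20 members lay above 10 CPM per kb and 5 below 1, among the latter all 3 AKR1C genes, ABCB6 and ABCC2. Reads of the near-identical AKR1C genes, and of TRIM16 and its copy TRIM16L, could be split between copies in ways the table does not show.

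RES lowered much of the set. Against the negative controls, 20 of 35 tested members (57.1%) were lower and none was higher at a false discovery rate (FDR) under 0.05 by edgeR's exact test; at an unadjusted p under 0.05, 1 was higher and 21 lower. edgeR's quasi-likelihood test and DESeq2 gave 20 and 19 lower and none higher. Over all 17092 genes, 11.2% were called, 4.94% higher and 6.21% lower. The median log2 fold change of the members was -0.27 and that of all genes 0.00, and 33 of the 35 were negative in sign. The called falls ran from -0.17 on the log2 scale for PRDX1 to -1.06 for NMRAL2P.

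**Figure D1:**
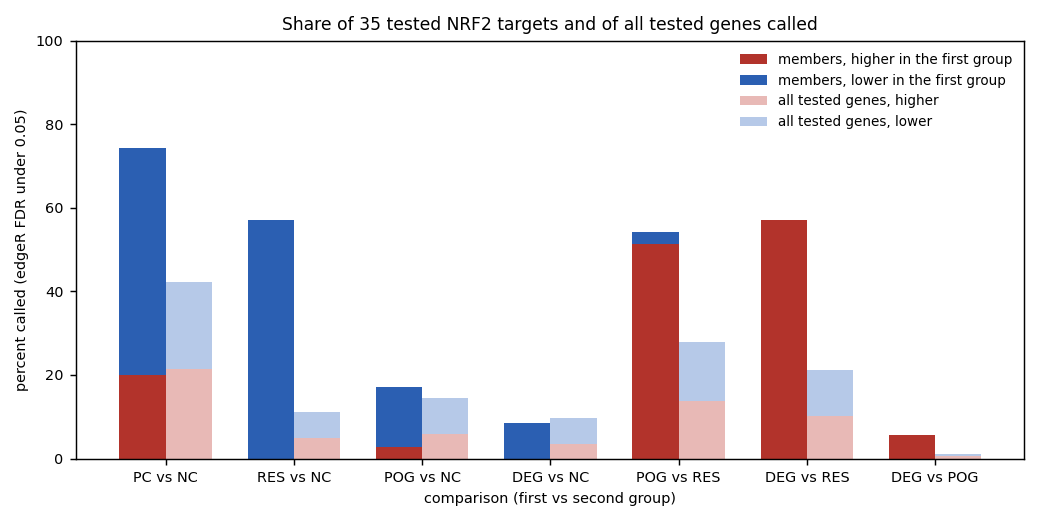
Percent of the 35 tested members (dark bars) and of all 17092 tested genes (pale bars) called by edgeR's exact test at FDR under 0.05 in 7 comparisons, split into higher (red) and lower (blue) in the first group. The RES against NC bar is all lower and reaches 57.1% beside 11.2% of all genes, while the POG and DEG bars against NC stand near those of all genes.

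Among the regulators, NFE2L2, the gene of NRF2, fell with RES. It read 113 and 112 CPM in the negative controls and 91.8, 91.4 and 92.2 CPM with RES. It fell by 18.4% (log2 fold change -0.29, SE 0.035, FDR = 2.11e-12). KEAP1, the inhibitor, read 91.4 and 93.7 CPM in NC and 87.6, 87.1 and 89.2 CPM with RES and was not called (-0.07, FDR = 0.304). MAFG, the binding partner, was not called (-0.05, FDR = 0.424). Exons of NFE2L2 overlap other annotated genes on the opposite strand (AGPS and HNRNPA3 among them), and whether counting used strand is not given in the sources used here.

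Of the glutathione genes, 3 of 4 fell with RES. SLC7A11, which imports the cystine that glutathione is built from, read 37.5 and 38.6 CPM in NC and 25.1, 27.5 and 24.7 CPM with RES (log2 fold change -0.56, SE 0.071, FDR = 5.56e-13). GCLM, the modifier subunit of the enzyme that makes the first bond of glutathione, read 45.8 and 43.7 CPM in NC and 32.5, 32.1 and 34.0 CPM with RES (-0.45, SE 0.049, FDR = 3.95e-16). The groups did not overlap in either gene. With so few libraries this was common: it held for 27 of the 35 tested members, 20 of them called. The share of all genes without overlap was not counted in any comparison. GCLC, the catalytic partner of GCLM, stood at -0.02 (FDR = 0.949), with all 5 libraries between 16.7 and 18.4 CPM. Glutathione reductase (GSR) fell by 0.18 on the log2 scale (FDR = 0.000723). This call was lost without the first negative control (FDR = 0.0813, the highest over 13 alternatives). Alternatives counted for single members all keep FDR under 0.05 as the only threshold.

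Of the thioredoxin genes, TXNRD1 fell by 0.39 on the log2 scale (SE 0.032, FDR = 4.91e-24), from 215 and 210.4 CPM to 164, 158 and 167 CPM. PRDX1 fell by 0.17 (FDR = 0.000317). Thioredoxin itself (TXN, -0.07, FDR = 0.389) and sulfiredoxin (SRXN1, which repairs oxidized peroxiredoxins, -0.27, FDR = 0.415) were not called.
Of the NADPH genes, the pentose phosphate enzymes TKT (-0.33, FDR = 1.87e-23) and TALDO1 (-0.26, FDR = 2.95e-09) fell, as did malic enzyme ME1 (-0.25, FDR = 0.00108). The ME1 call was lost without the second negative control (FDR = 0.109, the highest over 13 alternatives). PGD of the same pathway stood at -0.06 (FDR = 0.307).

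NQO1 (ENSG00000181019, chr16:69706996-69726668, minus strand, hg38) showed the change with the lowest FDR of any member. It read 94.1 and 98.6 CPM in NC and 49.9, 49.9 and 50.03 CPM with RES, so the RES libraries nearly coincided, far from the controls. It fell by 48.2% (log2 fold change -0.95, SE 0.039, 95% interval -1.03 to -0.87, FDR = 4.28e-112). The aldose reductase AKR1B1 read 199.9 and 206 CPM in NC and 152, 147 and 152 CPM with RES (-0.43, FDR = 2.59e-29). Epoxide hydrolase EPHX1 fell by 0.35 (FDR = 4.41e-08). AKR1C1, a low gene, read 1.34 and 1.18 CPM in NC and 0.628, 0.738 and 0.494 CPM with RES (-1.02, SE 0.32, FDR = 0.0123). This call was lost without either negative control or without the third RES library (FDR 0.0642 to 0.162, the latter the highest over 11 alternatives). DESeq2, and a filter at a mean of at least 1 CPM, gave AKR1C1 no FDR in this comparison, so neither is among the 11. AKR1C2, the carbonyl reductases CBR1 and CBR3, and UGDH, which supplies glucuronic acid, were not called (log2 fold changes 0.19, -0.04, -0.11 and -0.05).

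HMOX1, which opens the heme ring, fell from 23.9 and 24.99 CPM in NC to 19.0, 20.4 and 19.2 CPM with RES (log2 fold change -0.32, SE 0.063, FDR = 2.60e-05). The other heme genes were not called: the biliverdin reductase BLVRB at 0.14 (FDR = 0.104), the heme transporter SLC48A1 at -0.01 (FDR = 0.96) and the porphyrin transporter ABCB6 at -0.41 (FDR = 0.22). BLVRB was called higher when libraries were scaled by plain totals. Of the efflux pumps, ABCC3 read 50.5 and 52.5 CPM in NC and 36.7, 36.8 and 38.1 CPM with RES (-0.47, FDR = 1.05e-15). ABCC1 (-0.02, FDR = 0.855) and ABCC2 (-0.55, SE 0.21, FDR = 0.0625) were not called.

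All 5 remaining targets fell with RES. NMRAL2P, an NRF2-induced transcribed pseudogene (chr3:185960039-185979837, plus strand), read 3.54 and 3.62 CPM in NC and 1.41, 1.36 and 2.36 CPM with RES (log2 fold change -1.06, SE 0.20, FDR = 8.09e-07). PIR, an iron-binding nuclear protein, read 12.8 and 10.8 CPM in NC and 7.72, 7.02 and 7.13 CPM with RES (-0.70, SE 0.092, FDR = 9.50e-12). Both were below the controls in every RES library, although the third RES library read higher than the others for NMRAL2P. TRIM16L stood at -0.57 (FDR = 5.54e-08), OSGIN1, a growth inhibitor induced by oxidants, at -0.39 (FDR = 0.00494) and the ubiquitin ligase TRIM16 at -0.27 (FDR = 0.00537). The OSGIN1 call was lost without either negative control or the second RES library (FDR 0.0567 to 0.0942), and that of TRIM16 without the second negative control (FDR = 0.347); each upper value is the highest over 13 alternatives.

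**Figure D2:**
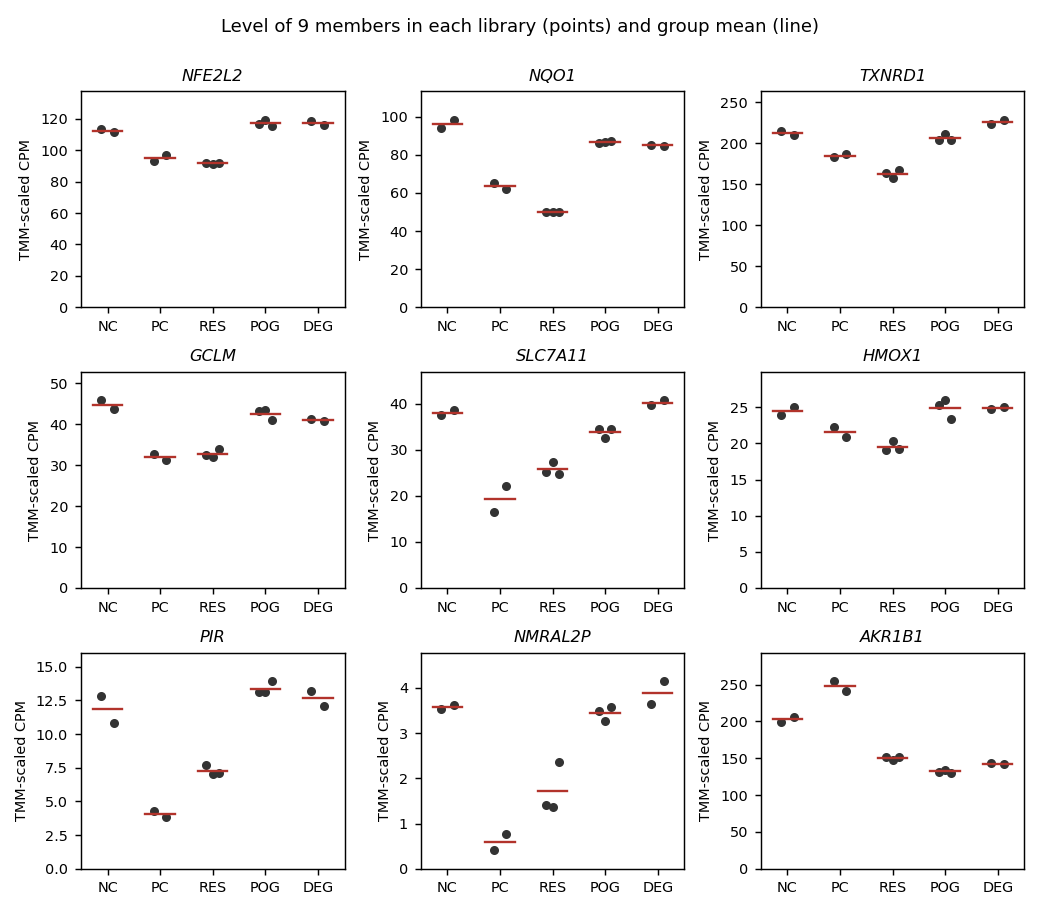
TMM-scaled CPM of 9 members in each of the 12 libraries (points) with the group mean (line), on axes that start at 0. For NQO1 the 3 RES libraries sit at 49.9 to 50.03 CPM, below every other library, whereas AKR1B1 is lower with all 3 compounds than in NC and higher in PC.

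With POG or DEG, few members were called. POG gave 6 called members of 35 (17.1%), 1 higher and 5 lower, beside 14.5% of all genes (5.93% higher, 8.57% lower). The quasi-likelihood test and DESeq2 also gave 1 higher and 5 lower with POG. At an unadjusted p under 0.05 the exact test gave 5 higher and 9 lower with POG. DEG gave 3 (8.57%), all lower, beside 9.63% of all genes (3.52% higher, 6.11% lower); none was higher by edgeR's exact test, its quasi-likelihood test or DESeq2, and at an unadjusted p under 0.05 there were 2 higher and 5 lower. With dispersions estimated from the DEG and NC libraries alone, the exact test called 3 higher and 4 lower. The share of all genes was not counted under that setting. With dispersions over all 12 libraries, the shares of members called lay near those of all genes. The members' median log2 fold changes were then -0.04 with POG and 0.00 with DEG.

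The 5 members lower with POG were the reductases AKR1B1, AKR1C1 and NQO1, the hydrolase EPHX1 and the pump ABCC3. AKR1B1 fell by 34.9% with POG and read 131, 135 and 130.3 CPM, against 199.9 and 206 CPM in NC (log2 fold change -0.62, SE 0.033, FDR = 4.69e-61). AKR1C1 read 0.688, 0.363 and 0.559 CPM (-1.23, SE 0.32, FDR = 0.00127), a call lost without the first negative control (FDR = 0.0519, the highest over 12 alternatives). ABCC3 read 40.1, 38.8 and 39.2 CPM (-0.39, FDR = 4.01e-11), and EPHX1 stood at -0.26 (FDR = 5.46e-05). These groups did not overlap with the controls, which held for 19 of the 35 tested members with POG, 5 of them called. NQO1 read 86.1, 86.6 and 87.2 CPM, so that it fell by 10.1% (-0.15, FDR = 0.00198), and its call was lost without the second negative control (FDR = 0.166, the highest over 13 alternatives).

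SRXN1 was the sole member called higher with POG. It read 4.93, 6.06 and 3.72 CPM against 3.85 and 2.64 CPM in NC, so the groups overlapped (log2 fold change 0.59, SE 0.17, FDR = 0.00862). The call was lost without the second negative control (FDR = 0.388) or without the second POG library (FDR = 0.125), the former the highest over 13 alternatives.

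With DEG, AKR1B1 fell by 29.7% and read 143 and 142 CPM (log2 fold change -0.51, SE 0.037, FDR = 8.21e-33) and ABCC3 read 38.9 and 40.7 CPM (-0.37, FDR = 3.71e-08). NQO1 read 85.4 and 84.9 CPM (-0.18, FDR = 0.00153), lost without the second negative control (FDR = 0.128, the highest over 11 alternatives). The groups did not overlap in any of the 3, but this held for 22 of the 35 tested members with DEG. AKR1B1, ABCC3 and NQO1 were thus lower with each compound against the same negative controls; these comparisons share those controls.

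The regulators NFE2L2, KEAP1 and MAFG and the 4 glutathione genes were not called with POG or DEG against NC. NFE2L2 read 116, 120 and 116 CPM with POG and 118 and 116 CPM with DEG, log2 fold changes of 0.06 for each. KEAP1 read 88.5, 93.3 and 92.5 CPM with POG and 91.9 and 91.7 CPM with DEG. GCLM read 43.3, 43.4 and 41.1 CPM with POG and 41.4 and 40.7 CPM with DEG. HMOX1 read 25.4, 26.0 and 23.3 CPM with POG and 24.8 and 25.1 CPM with DEG. For NFE2L2, GCLM and HMOX1 these levels lie above every RES library, while the KEAP1 levels with POG overlap those with RES.

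**Figure D3:**
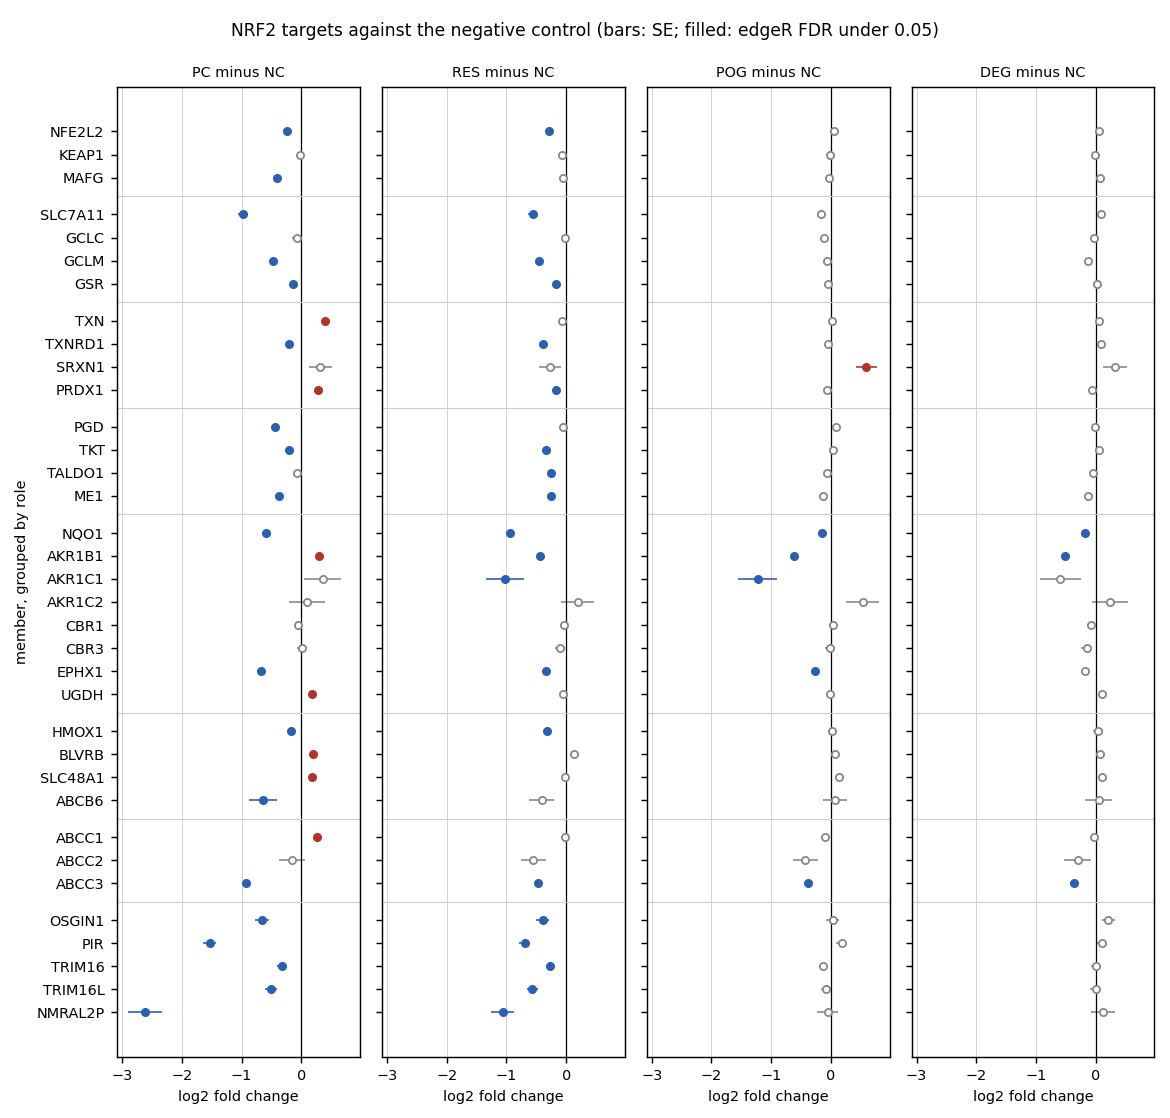
Log2 fold change of each tested member against the negative control, in panels for PC, RES, POG and DEG, with members grouped by role; bars are standard errors and filled points passed FDR under 0.05 (blue lower, red higher). The RES panel has 20 filled points, all left of 0, down to -1.06, the POG panel has 6 and the DEG panel 3, and the PC panel has filled points on both sides.

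The compounds were next compared directly. These differences use no negative control, although the dispersions come from all 12 libraries. Against RES, POG had 18 members higher and 1 lower of 35 (54.3% called), beside 27.9% of all genes (13.7% higher, 14.1% lower). DEG had 20 higher and none lower (57.1%), beside 21.2% of all genes (10.3% higher, 10.8% lower); the quasi-likelihood test and DESeq2 also gave 20 higher and none lower, and at an unadjusted p under 0.05 there were 23 higher and 1 lower. The members' median log2 difference was 0.14 for POG and 0.20 for DEG.

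NQO1 was 73.5% higher with POG than with RES (log2 difference 0.79, SE 0.035, FDR = 1.52e-97) and 70.5% higher with DEG (0.77, SE 0.039, FDR = 7.99e-72). NMRAL2P read 3.49, 3.27 and 3.57 CPM with POG and 3.64 and 4.15 CPM with DEG, differences from RES of 1.01 (FDR = 4.08e-08) and 1.19 (FDR = 6.01e-09). PIR read 13.1, 13.1 and 13.9 CPM with POG and 13.2 and 12.1 CPM with DEG, differences of 0.88 (FDR = 1.36e-25) and 0.79 (FDR = 5.93e-16). In each of these genes the lowest POG or DEG library stood well above the highest RES library. Groups did not overlap in 27 of the 35 tested members in either comparison. SLC7A11 read 34.6, 32.7 and 34.6 CPM with POG and 39.8 and 40.8 CPM with DEG (differences 0.40 and 0.64). The differences of NFE2L2 from RES were 0.35 for both POG (FDR = 1.25e-23) and DEG (FDR = 1.67e-18).

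SRXN1, not called with RES against NC, was higher with POG than with RES (0.86, SE 0.16, FDR = 4.81e-07) and with DEG than with RES (0.59, SE 0.18, FDR = 0.00641). Its RES libraries read 2.47, 2.95 and 2.65 CPM and its DEG libraries 4.29 and 3.82 CPM. The DEG call was lost without the first DEG library (FDR = 0.145, the highest over 12 alternatives).

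The same pattern was seen in further roles. TXNRD1 was higher than with RES by 0.34 with POG and 0.47 with DEG, GCLM by 0.37 and 0.32, HMOX1 by 0.35 and 0.35, TKT by 0.36 and 0.39, OSGIN1 by 0.42 and 0.61 and TRIM16L by 0.49 and 0.57. KEAP1 (0.06 with POG, FDR = 0.295; 0.06 with DEG, FDR = 0.343), GCLC, CBR1, CBR3, BLVRB and ABCC1 were called in neither comparison. Some calls were less stable. With POG, GSR, PRDX1, SLC48A1 and ABCB6 lost their calls in 1 to 7 of 14 alternatives. Each was lost without the first POG library, and SLC48A1 and ABCB6 also by DESeq2. Their highest FDR over the alternatives were 0.0502, 0.112, 0.131 and 0.259. For GSR this was without the first POG library, and for the others without a RES library. With DEG, MAFG, TXN, PRDX1, EPHX1, UGDH and TRIM16 lost theirs in 1 to 8 of 12, each without the first DEG library among others. Without the second DEG library MAFG, TXN, PRDX1 and EPHX1 had their highest FDR (0.120, 0.326, 0.338 and 0.116). UGDH and TRIM16 had theirs without the first (0.0899 and 0.0644).

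Of the 20 members that were lower with RES than in NC, 14 were higher with POG than with RES, 5 were not called (ME1, AKR1C1, EPHX1, ABCC3 and TRIM16) and AKR1B1 was lower with POG (-0.19, FDR = 3.69e-07). With DEG, 16 of the 20 were higher than with RES and ME1, AKR1B1, AKR1C1 and ABCC3 were not called. Since the RES libraries stand in both of these comparisons, the counts describe the same libraries and are not separate evidence.

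**Figure D4:**
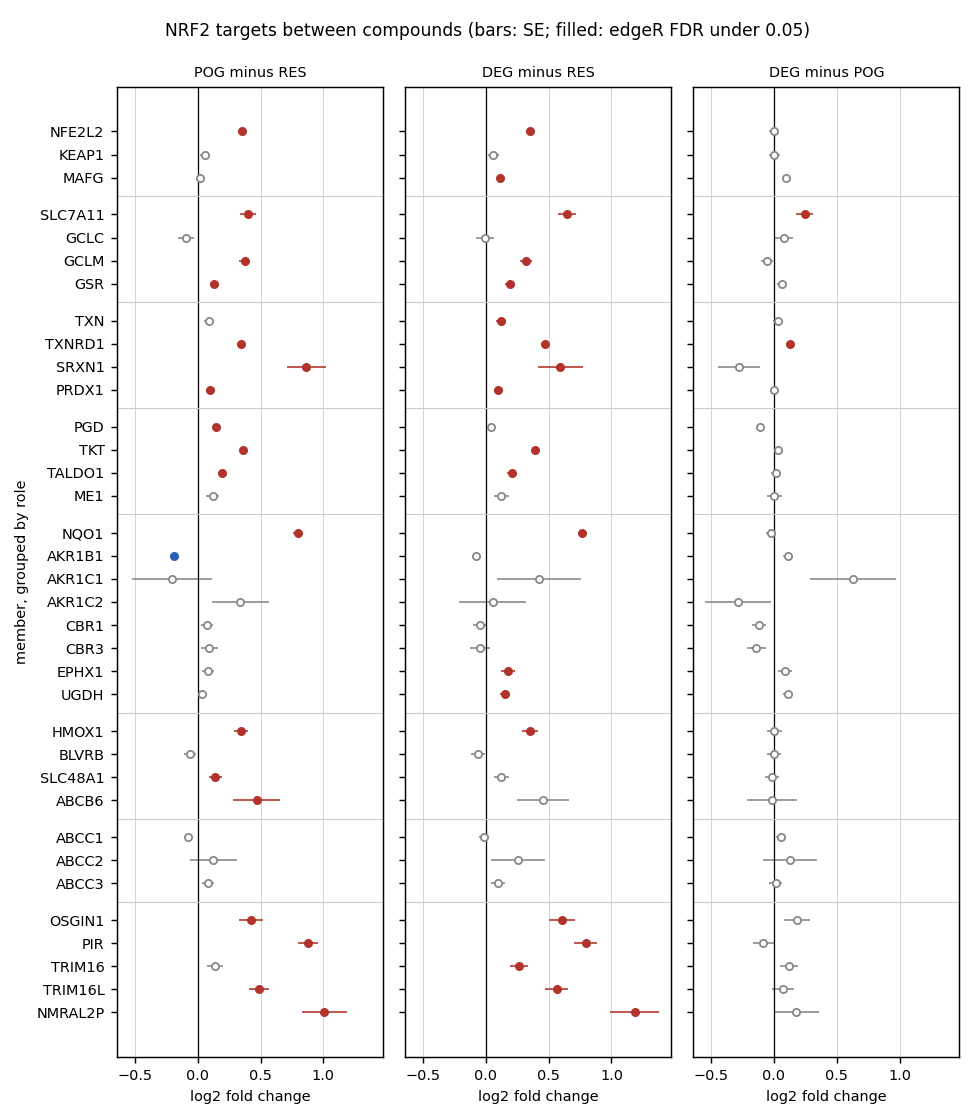
Log2 difference of each tested member between compounds at the same labelled mass dose, in panels for POG minus RES, DEG minus RES and DEG minus POG; bars are standard errors and filled points passed FDR under 0.05 (red higher, blue lower). Points right of 0 prevail in the POG and DEG against RES panels, up to 1.01 and 1.19, while the DEG minus POG panel has 2 filled points.

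POG and DEG differed little over the set. DEG had 2 members higher and none lower than POG (5.71%), beside 1.05% of all genes (0.55% higher, 0.497% lower); at an unadjusted p under 0.05 there were 5 higher and 2 lower, the quasi-likelihood test called none and DESeq2 called 1 higher. SLC7A11 (log2 difference 0.25, FDR = 0.0438) and TXNRD1 (0.13, FDR = 0.0327, with 223 and 229 CPM for DEG and 204, 211 and 205 CPM for POG) had the DEG libraries above all POG libraries, and each call was lost in 8 of 12 alternatives, including each one that left out a library (FDR up to 0.455 for SLC7A11, without the second DEG library, which also gave TXNRD1 its highest; 0.198 for TXNRD1 without the first). The DEG and POG libraries did not overlap in 16 of the 35 members, 2 of them called. The 95% interval of the DEG minus POG difference lay within 0.5 of 0 on the log2 scale for 30 of 35 members and within 0.25 for 23. For NQO1 it ran from -0.10 to 0.05. SRXN1, AKR1C1, AKR1C2, ABCC2 and NMRAL2P had wider intervals.

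Serum moved the set in both directions. Against NC, PC had 26 of 35 members called (74.3%), 7 higher and 19 lower, beside 42.4% of all genes (21.4% higher, 20.9% lower). The members' median log2 fold change was -0.18, against -0.01 for all genes. With the first or second library of either group left out, 22 to 25 members were called.

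The largest falls with serum were in NMRAL2P, PIR and SLC7A11. NMRAL2P read 0.425 and 0.759 CPM in PC against 3.54 and 3.62 CPM in NC (log2 fold change -2.62, SE 0.28, FDR = 9.10e-25). PIR read 4.25 and 3.87 CPM (-1.54, SE 0.11, FDR = 9.85e-42) and SLC7A11 16.6 and 22.2 CPM (-0.98, SE 0.081, FDR = 1.55e-32). All were below the negative controls in both serum libraries. PC and NC did not overlap in 27 of the 35 tested members, 26 of them called. NQO1 fell by 33.8% and read 65.5 and 62.0 CPM (-0.60, FDR = 1.40e-38), GCLM 32.7 and 31.4 CPM (-0.48, FDR = 1.00e-16) and ABCC3 24.9 and 29.3 CPM (-0.93, FDR = 4.93e-51). NFE2L2 read 93.3 and 97.2 CPM (-0.24, FDR = 5.87e-08), KEAP1 95.2 and 86.3 CPM (-0.03, FDR = 0.683), and MAFG stood at -0.41 (FDR = 8.81e-24). HMOX1 read 22.3 and 20.9 CPM (-0.18, FDR = 0.0276), a call lost in 5 of 12 alternatives (FDR up to 0.230, without the second negative control; 0.222 without the second PC library).

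The glutathione reductase GSR (-0.15), TXNRD1 (-0.20), the NADPH genes PGD (-0.43), TKT (-0.21) and ME1 (-0.38), EPHX1 (-0.68), OSGIN1 (-0.66), TRIM16 (-0.33) and TRIM16L (-0.51) also fell with serum. Of these, GSR lost its call without the first negative control (FDR = 0.0827, the highest over 12 alternatives) and TRIM16 without the second (FDR = 0.0515, the highest over 12).

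Members that rose with serum were TXN (log2 fold change 0.40, FDR = 6.03e-16), AKR1B1 (255 and 241 CPM, 0.29, FDR = 2.90e-12), PRDX1 (0.27, FDR = 3.13e-10), the efflux pump ABCC1 (0.27, FDR = 1.16e-07), BLVRB (0.19), UGDH (0.18) and SLC48A1 (0.17). Peroxide reduction by PRDX1 uses thioredoxin, and these 2 members had the highest level per kilobase in the negative controls. Of the 20 members lower with RES, 16 were also lower with serum and TALDO1 and AKR1C1 were not called. The other 2, AKR1B1 and PRDX1, were higher with serum and lower with RES. Both comparisons share the same negative controls. SLC48A1 lost its call in 7 of 12 alternatives (FDR up to 0.200), BLVRB without the first PC or the second negative control library (FDR up to 0.0604) and ABCB6 (-0.64) without the first negative control (FDR = 0.489) or the first PC library (FDR = 0.134) and with DESeq2. The low genes AKR1C1 (2.02 and 1.19 CPM in PC), AKR1C2 and SRXN1 (4.35 and 3.70 CPM in PC) were not called.

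Other genes of the pathway were counted from lists of 15 regulators and 42 further targets. Of the 15 regulators, all tested, 2 were higher and 2 lower with RES than in NC (26.7% called, beside 11.2% of all genes), and their median log2 fold change was -0.01. MAFK, another small MAF partner, stood at -0.23 (FDR = 1.53e-08) and SQSTM1, which draws KEAP1 away from NRF2 and is also its target, at -0.16 (FDR = 6.83e-05). BTRC and GSK3B, both of the KEAP1-independent route that degrades NRF2, stood at 0.20 (FDR = 0.00358) and 0.12 (FDR = 0.0383). With serum, 4 regulators were higher and 5 lower (60.0% called, beside 42.4% of all genes), with POG 2 were lower (13.3%, beside 14.5%), and with DEG 2 were higher and 1 lower (20.0%, beside 9.63%). BACH1, a repressor that competes for the same elements, was lower with serum (-0.32, FDR = 2.67e-10), with POG (-0.24, FDR = 1.08e-06) and with DEG (-0.16, FDR = 0.0116). It was not called with RES (-0.03, FDR = 0.737). Compared directly, it was lower with POG than with RES (-0.21, FDR = 1.15e-06) and with DEG than with RES (-0.13, FDR = 0.0183).

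Of the 42 further targets, 33 were tested. With RES, 6 were lower and 1, MGST2, was higher (21.2% called, beside 11.2% of all genes), and the median log2 fold change was -0.04. The iron-storage chains FTL (log2 fold change -0.45, FDR = 3.26e-34) and FTH1 (-0.33, FDR = 4.92e-20) had the lowest FDR. MGST1, NQO2 and PANX2 were also among those lower. FTH1 was lower with POG (-0.13, FDR = 0.00246), DEG (-0.17, FDR = 0.000135) and serum (-0.47, FDR = 2.21e-35) as well. FTL was lower with serum (-0.12, FDR = 0.0054) and not called with POG or DEG against NC. With POG, 3 were higher and 3 lower (18.2%, beside 14.5%), with DEG 2 and 3 (15.2%, beside 9.63%), and with serum 7 and 12 (57.6%, beside 42.4%). POG against RES gave 12 higher and 3 lower (45.5%, beside 27.9%), and FTL differed by 0.46 (FDR = 5.82e-45). DEG against RES gave 7 higher and 5 lower (36.4%, beside 21.2%), with FTL at 0.49 (FDR = 1.03e-41). Targets of ATF4, a stress factor that also acts on SLC7A11, had 2 of 14 called with RES, both lower (14.3%, near the 11.2% of all genes). Targets of the aryl hydrocarbon receptor, which shares NQO1 with NRF2, had 2 of 6 tested called with RES (33.3%, beside 11.2% of all genes). These were CYP1B1 (-0.43, FDR = 3.66e-17) and AHRR (-0.12, FDR = 0.0403), both lower. CYP1A1 (0.35), TIPARP (-0.01), ALDH3A1 (0.37) and SLC7A5 (-0.03) were not called, and the median of the list was -0.02.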

How the data were processed

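The deposited table held raw read counts per Ensembl gene, which the authors made with STAR and featureCounts on hg38 (BWA MEM is also named); their versions, how strand and multi-mapping reads were handled, and the annotation are not given in the sources used here. Of 13 labelled samples, 12 had a column; the third DEG sample was not analysed here. The submitters' processing notes also name edgeR. Symbols came from GENCODE v44. Counts were filtered with filterByExpr, scaled by TMM and compared with edgeR's exact test (edgeR 4.0.16, R 4.3.3), the test the study's methods name, with tagwise dispersions over all 12 libraries and Benjamini-Hochberg adjustment over 17092 genes (FDR under 0.05). These genes held 99.97% of reads, with a common BCV (edgeR's measure of variation between libraries beyond counting noise, which here may be technical) of 3.21%. Standard errors and 95% intervals came from the quasi-likelihood fit. CPM are TMM-scaled. DESeq2 1.42.0 was an alternative.

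The members and the lists were chosen with earlier results of these data known. Values in every library are given for NFE2L2, KEAP1, NQO1, HMOX1, GCLM and SLC7A11 and, per comparison, for the 3 called members with the largest absolute log2 fold change and at least 1 CPM on average in one group; others are described by counts, ranges and fold changes, and promoters are shown for such members with a core in the window. Promoters came from RefSeq, GRCh38.p14. Counting depth and 2 or 3 libraries a group limit the precision, most for genes near 1 CPM. One gene of the list of further targets is counted but not reported here by name.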

Additional observations from a re-analysis of the deposited data

How the results depend on the processing

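No paired analysis was possible because the labels give no replicate numbers. No called member changed sign under any alternative. The alternatives with FDR under 0.05 as the only threshold, without a fold limit, were counted for stability. Calls held in all of these for 20 of 26 members with PC, 15 of 20 with RES, 3 of 6 with POG and 2 of 3 with DEG against NC. Between compounds they held for 15 of 19 in POG against RES, 13 of 20 in DEG against RES and 0 of 2 in DEG against POG. Requiring an absolute log2 fold change of at least 0.5 left 9 members with PC, 6 with RES, 3 with POG and 1 with DEG against NC, 4 in POG against RES, 7 in DEG against RES and 0 in DEG against POG; most called changes were smaller than that. With dispersions from the compared groups alone, 23 members were called with PC (6 higher, 17 lower), 21 with RES, 10 with POG and 7 with DEG (3 higher, 4 lower). Between compounds, 22 were called in POG against RES, 21 in DEG against RES and 6 in DEG against POG. The share of all genes called was not counted under this setting, so these counts have no background beside them. The cause of the shifts was not tested. DEG against POG gave 0 calls by the quasi-likelihood test, with plain library totals and at FDR under 0.01 (7 at an unadjusted p under 0.05 in each), 1 by DESeq2 and 1 with no filter on low counts.

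Leaving out 1 library gave 16 to 20 calls with RES, 4 to 6 with POG, 2 to 3 with DEG, 22 to 25 with PC, 16 to 18 in POG against RES, 14 to 19 in DEG against RES and 0 to 0 in DEG against POG (edgeR's exact test, 5 to 9 at an unadjusted p under 0.05). Plain library totals moved the median of all genes by at most 0.05 (log2), and with them POG had 2 higher and 5 lower, PGD being the second higher member, RES 1 higher (BLVRB) and 20 lower, PC 6 higher and 20 lower, and DEG against RES 19 higher. AKR1C1, AKR1C2, SRXN1, ABCB6, ABCC2 and NMRAL2P had few reads and the widest intervals.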
